A study of Mus musculus with 18 samples.

Results

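Glycolysis and hypoxia genes were examined as a module of 35 genes in 2 lung cancer lines of the mouse after the dual-specificity kinase DSTYK had been lowered or raised. The members are a fixed list of symbols, chosen with earlier results of these data known. All 35 were found among the 36046 genes with a listed transcript. They comprise 2 glucose transporters, 15 glycolytic enzymes, 2 regulators of the PFKFB family, 5 genes of lactate and pyruvate handling, 2 alpha subunits of the hypoxia-inducible factor (HIF), 2 HIF prolyl hydroxylases and 7 other hypoxia genes. The 18 RNA libraries fell into 6 groups of 3. LLC, the Lewis lung carcinoma line of C57BL/6 mice, is labelled lung adenocarcinoma, and UN-SCC679, a line of A/J mice, is labelled lung squamous carcinoma. In each line cells with the TPLKO vector carried either no insert (empty) or the hairpin sh3, and all of these cells received doxycycline. UN-SCC679 cells with the pLENTI6 vector carried either no insert or wild-type DSTYK (OE_DSTYKwt), with treatment given as N.A. The 18 libraries hold no uninfected cells and no second hairpin. The labels do not say whether a population was 1 clone or whether the 3 libraries of a group came from separate cultures, so the p-values rest on a spread between libraries that can be technical.

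Glycolysis converts glucose to pyruvate, and lactate dehydrogenase then reduces pyruvate to lactate, which leaves the cell through monocarboxylate transporters. Many tumour cells run this route at a high rate also where oxygen is present. Under low oxygen the HIF alpha subunits escape hydroxylation by the EGLN enzymes, are no longer degraded, pair with ARNT and bind short DNA elements near many of the genes of this module. The labels name no hypoxic culture, so the members are described here as a set of genes and not as a response to low oxygen.

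Each library held between 40525385 and 46528071 estimated counts. Dstyk was lower in both hairpin arms, at 23.2 ± 0.787 against 43.2 ± 2.14 CPM in LLC and 26.3 ± 0.876 against 37.1 ± 1.04 CPM in UN-SCC679, and higher with OE_DSTYKwt, at 37.2 ± 0.696 against 30.5 ± 1.46 CPM (SD, n = 3; CPM, counts scaled to library size, with 1 TMM scale for all libraries). Replicate 1 of the empty pLENTI6 group stood apart from the others of its group, with a mean chi-square per gene of 12.2 and 13.8 against them, where no other pair of replicates exceeded 5.05, so for the members named with per-library values in comparisons that use this group, and for the counts of calls, the value without it is also given. In LLC the alveolar and club cell markers Sftpc, Sftpd and Scgb1a1 were at 0, and the 8 squamous markers summed to at most 0.683 TPM, the unit that also corrects for transcript length. In UN-SCC679 the squamous markers summed to between 177 and 223 TPM, but only 4 or 5 of the 8 reached a group mean of 1 CPM. Dsg3 was at 0 in 3 of the 4 groups, Krt5 in empty TPLKO cells and Krt15 in empty pLENTI6 cells. The 7 fibroblast markers summed to between 1360 and 3990 TPM in UN-SCC679 against at most 29.8 TPM in LLC. By number, 4 of these 7 reached 1 CPM in each UN-SCC679 group and 5 in each LLC group, so the sums rest on few genes. With the hairpin the fibroblast sum went from 3880 to 3990 down to 3120 to 3180 TPM in UN-SCC679, and the sum of 6 epithelial markers from 540 to 565 down to 338 to 355 TPM. Only 2 of the 6 epithelial markers reached 1 CPM in each UN-SCC679 group, with Krt19 and Cldn4 at 0 in empty TPLKO cells. In LLC the sum of 8 alveolar and club cell markers reached 5.52 TPM in empty and 19.4 TPM in sh3 libraries, with 2 of the 8 at 1 CPM or more. The part of these markers in the results below was not tested, and in bulk RNA fewer cells of a type and less RNA per cell cannot be told apart.

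The letters ACGTG or GCGTG, the core of the hypoxia response element, were searched on both strands in the 250 bases before each RefSeq start (GRCm38.p6). They occurred in 38 of the 47 listed windows of members, or 80.9%, and 33 of the 35 members had a window. The share was 53.0% of the 14016 windows of genes tested in any comparison and 38.6% of all 32851 windows. Mean GC content differed in the same order, at 61.0%, 58.9% and 53.2%, and its part in the shares was not tested. The windows of 5 members are shown because these genes moved in different directions in the results below although each holds the letters. They are written 5′ to 3′ on the gene's strand, with matches in capitals, at chr10:59323046-59323295 (P4ha1, plus strand), chr2:71872974-71873223 (Pdk1, plus), chr7:46845554-46845803 (Ldha, plus), chr4:119108495-119108744 (Slc2a1, plus) and chr8:45999851-46000100 (Ankrd37, minus).
P4ha1: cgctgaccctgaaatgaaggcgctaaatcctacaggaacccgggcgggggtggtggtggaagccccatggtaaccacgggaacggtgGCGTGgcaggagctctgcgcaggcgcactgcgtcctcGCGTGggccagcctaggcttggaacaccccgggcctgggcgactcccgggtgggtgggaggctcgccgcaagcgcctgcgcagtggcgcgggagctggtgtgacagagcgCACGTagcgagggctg
Pdk1: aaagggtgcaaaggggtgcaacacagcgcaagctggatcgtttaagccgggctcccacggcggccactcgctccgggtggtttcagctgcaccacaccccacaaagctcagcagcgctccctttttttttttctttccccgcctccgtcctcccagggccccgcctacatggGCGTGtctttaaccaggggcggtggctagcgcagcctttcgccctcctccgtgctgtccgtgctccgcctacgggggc
Ldha: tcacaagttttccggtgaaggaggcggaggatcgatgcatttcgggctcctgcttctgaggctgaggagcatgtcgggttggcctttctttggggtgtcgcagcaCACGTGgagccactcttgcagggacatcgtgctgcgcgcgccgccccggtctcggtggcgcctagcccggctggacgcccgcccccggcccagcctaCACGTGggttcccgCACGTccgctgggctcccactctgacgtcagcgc
Slc2a1: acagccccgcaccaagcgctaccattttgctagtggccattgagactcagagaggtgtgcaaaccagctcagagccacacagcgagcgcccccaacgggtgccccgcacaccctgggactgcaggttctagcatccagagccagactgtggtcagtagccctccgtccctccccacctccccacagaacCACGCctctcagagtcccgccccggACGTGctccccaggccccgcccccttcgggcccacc
Ankrd37: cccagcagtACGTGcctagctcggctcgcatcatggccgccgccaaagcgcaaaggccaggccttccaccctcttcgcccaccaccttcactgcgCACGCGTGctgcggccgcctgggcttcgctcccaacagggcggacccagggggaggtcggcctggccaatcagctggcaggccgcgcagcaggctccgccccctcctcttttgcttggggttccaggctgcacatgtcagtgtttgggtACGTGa
P4ha1 held 3 matches, Pdk1 1, Ldha 5, Slc2a1 2 and Ankrd37 4; overlapping matches on opposite strands count separately, as in the palindrome CACGTG of Ldha. At the start nearest the annotated 5′ end, 26 of 33 members had a match, and Vegfa, Pkm, Eno2, Aldoa, Hk1, Gpi1 and Tpi1 had none in this window. A match is a string of letters and not evidence of binding.

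The first comparison asked which members differed when Dstyk was lowered in LLC. The sh3 libraries showed lower counts of abundant genes of the second part of glycolysis and of lactate production, with Ldha, Pkm, Eno1 and Gapdh each at 1.29- to 1.46-fold lower counts, and higher counts of a set of less abundant members, among them the prolyl 4-hydroxylase subunits P4ha1 and P4ha2, the pyruvate dehydrogenase kinase Pdk1, the phosphofructokinase Pfkm and the enolase Eno2, at 2.07- to 3.54-fold higher counts. Of the 34 members tested, 15 rose, 13 fell and 6 did not pass the test (edgeR's quasi-likelihood test, Benjamini-Hochberg adjusted p under 0.05). Over all genes 72.6% were called, 36.2% higher and 36.4% lower, so most expressed genes moved in this comparison. At 1.5-fold or more, 9 members rose and none fell, against 25.6% of all genes in either direction, 15.2% higher and 10.4% lower. The empty and sh3 libraries did not overlap for 30 members, against 75.9% of all genes, and the members' median log2 change was 0.01, as was that of all genes.

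Among the transporters and the early enzymes, Slc2a1, the basal glucose transporter GLUT1, stood at 163.5, 163 and 168 CPM in the empty libraries and at 150.1, 145 and 148 CPM in the sh3 libraries. It fell by 0.15 on the log2 scale (SE 0.02, adjusted p = 1.25e-05), and its groups did not overlap. Slc2a3, the high-affinity transporter GLUT3, rose from 9.29 ± 1.08 to 15.5 ± 1.51 CPM, 1.68-fold. The hexokinases Hk1 and Hk2, which trap glucose in the cell, each rose by 0.27 on the log2 scale. Phosphofructokinase, the committed step, changed in its makeup. Pfkm, the muscle-type subunit, was at 55.4, 58.4 and 56.7 CPM in empty and 119, 117 and 117 CPM in sh3 libraries, a log2 change of 1.05 (SE 0.026, adjusted p = 2e-12), while the liver-type Pfkl fell by 0.28 and the platelet-type Pfkp rose by 0.53 on the log2 scale. Pfkfb3, which makes the allosteric activator fructose 2,6-bisphosphate, stood at 25.0, 25.1 and 25.4 CPM without and 48.3, 50.3 and 48.0 CPM with the hairpin, 1.95-fold higher (log2 0.96, SE 0.034, adjusted p = 5.24e-11). Its relative Pfkfb4 did not pass the test (log2 -0.16, adjusted p = 0.0893).

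Most of the enzymes from triose phosphate to pyruvate fell. Gapdh was at 2038, 2025 and 2023 CPM in empty libraries and at 1600, 1571 and 1529 CPM in sh3 libraries, lower in all 3, with a log2 change of -0.37 (SE 0.014, adjusted p = 1.21e-10). Pkm, pyruvate kinase, was at 3914, 3968 and 3985 CPM against 2913, 2916 and 2854 CPM (log2 -0.45, SE 0.011, adjusted p = 1.77e-12). Eno1, the ubiquitous enolase, fell by 0.38, Pgk1 by 0.21, Pgam1 by 0.19 and Tpi1 by 0.10 on the log2 scale. Eno2, the neuronal enolase, went the other way from a low level, from 2.26, 2.96 and 2.435 CPM to 9.01, 8.94 and 8.98 CPM, with a log2 change of 1.82 (SE 0.11, adjusted p = 6.83e-09). Gpi1, Aldoa and Aldoc did not pass the test.

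At the branch from pyruvate, Ldha, the lactate dehydrogenase subunit that favours lactate formation, was at 1737, 1755 and 1718 CPM in empty and 1194, 1193 and 1179 CPM in sh3 libraries, and fell by 0.54 on the log2 scale (SE 0.012, adjusted p = 8.27e-13). Slc16a1, the monocarboxylate transporter MCT1, fell by 0.37. Pdk1, which phosphorylates and inhibits the pyruvate dehydrogenase complex, rose from 38.5, 39.8 and 41.3 CPM to 86.1, 88.0 and 87.5 CPM (log2 1.13, SE 0.031, adjusted p = 4.96e-12). Pdha1, the catalytic subunit that PDK1 acts on, rose by 0.07, a small change that passed the test (adjusted p = 0.00447).

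Hif1a, the alpha subunit HIF-1α, was at 478, 471 and 461 CPM in empty and 537, 519.8 and 527 CPM in sh3 libraries (log2 0.17, SE 0.017, adjusted p = 1.26e-06), and its protein, through which HIF is mainly regulated, was not measured. Egln1, the main HIF prolyl hydroxylase PHD2, fell by 0.52 on the log2 scale and Egln3, itself a HIF target, rose by 0.28. Epas1, which encodes HIF-2α, had 3 estimated counts in the 3 empty and 16 in the 3 sh3 libraries, too few for the test.

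The 7 other hypoxia genes divided in the same way. P4ha1, a catalytic subunit of collagen prolyl 4-hydroxylase, was at 108, 103 and 106 CPM in empty and 232, 228 and 228 CPM in sh3 libraries, with a log2 change of 1.12 (SE 0.021, adjusted p = 1.73e-13). P4ha2, its second isoform, was at 4.47, 4.78 and 4.63 CPM against 10.95, 10.2 and 10.1 CPM (log2 1.18, SE 0.08, adjusted p = 2.41e-08). Adm, the vasodilator peptide adrenomedullin, was at 8.35, 6.77 and 7.83 CPM against 17.95, 16.7 and 16.1 CPM (log2 1.14, SE 0.08, adjusted p = 3.31e-08). For these genes every sh3 library lay above every empty library. Car9, a membrane carbonic anhydrase and common marker of hypoxia, was low in both groups, at 0.709, 0.7465 and 0.549 CPM against 1.70, 1.745 and 1.70 CPM (log2 1.36, SE 0.23, adjusted p = 0.000162). Vegfa, the angiogenic growth factor, moved down, from 305, 304 and 308 CPM to 247, 242 and 241 CPM, a fall by 0.33 (SE 0.016, adjusted p = 1.03e-09). Higd1a, a mitochondrial inner membrane protein, fell by 0.13, and Ankrd37, below 0.8 CPM in every LLC library, did not pass the test.

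**Figure D1:**
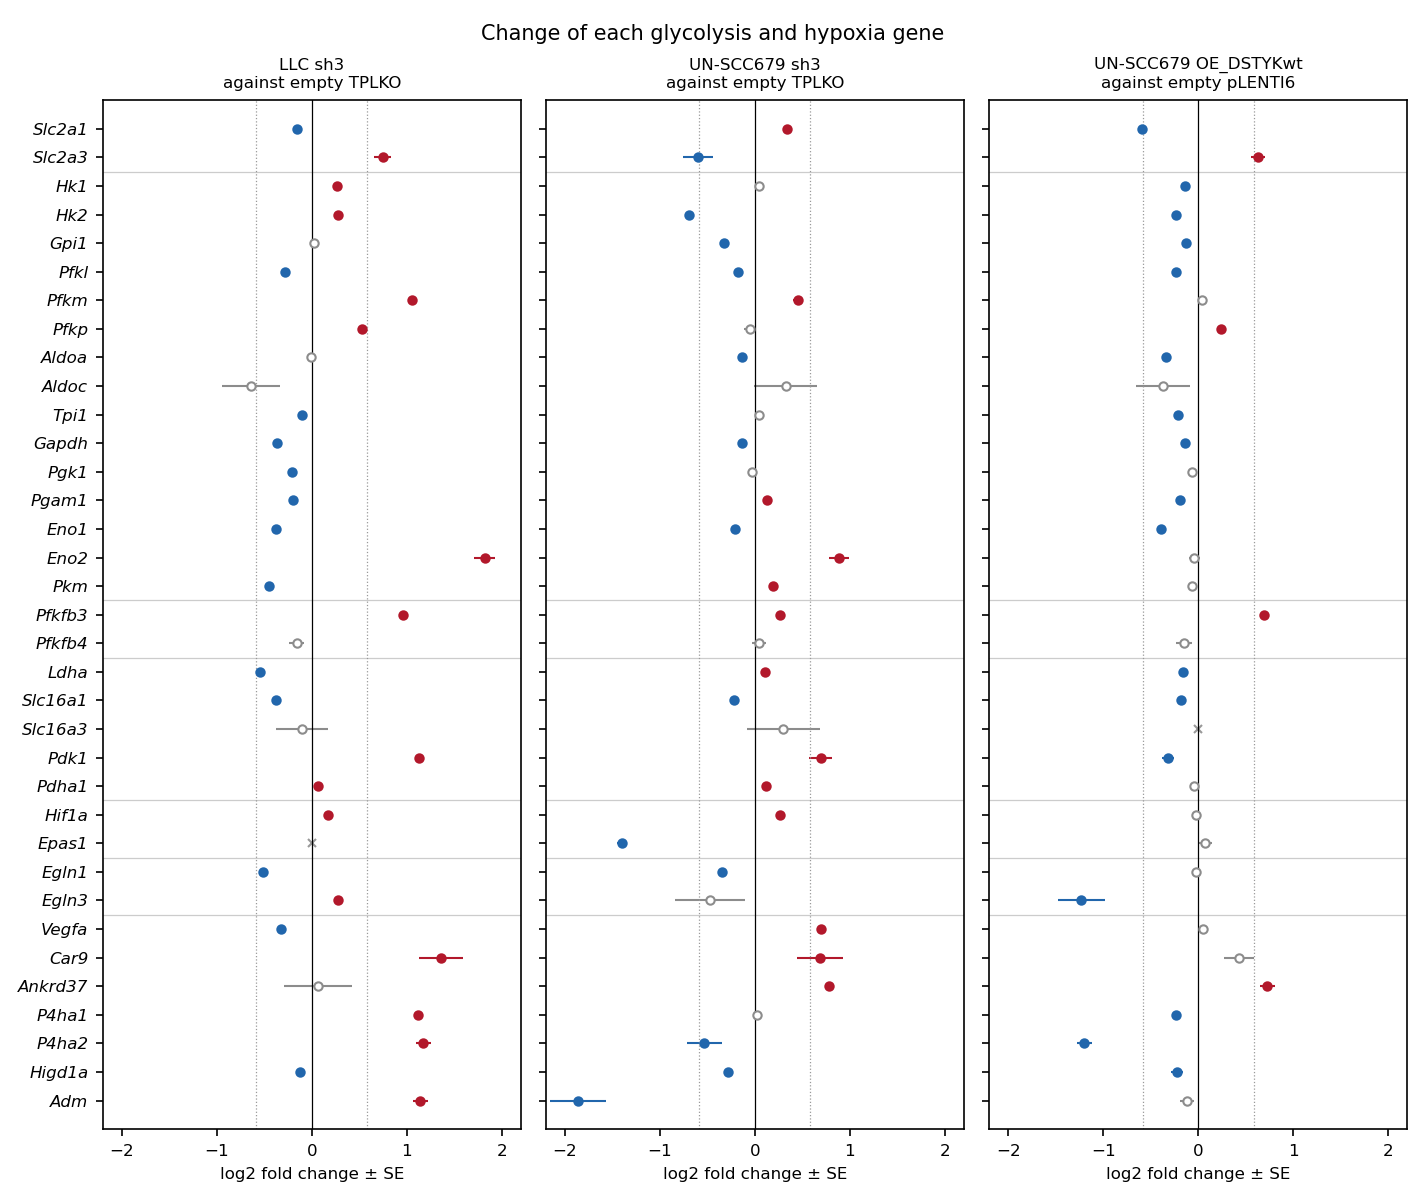
Log2 fold change with its standard error (x axis) of each member (y axis, ordered by role with lines between roles) in the 3 comparisons of altered with empty cells; filled red points rose, filled blue points fell, open points did not pass the test, crosses were not tested, and dotted lines mark 1.5-fold. In LLC the abundant lower glycolytic enzymes sit left of 0 and Eno2, Car9, P4ha1, P4ha2, Adm, Pdk1 and Pfkm lie past 1 on the right. In UN-SCC679 sh3 cells Adm and Epas1 are farthest left.

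The same question in UN-SCC679 gave another pattern. With the hairpin Adm, Epas1, Hk2 and Slc2a3 were lower by 1.52- to 3.64-fold, and Eno2, Ankrd37, Pdk1, Vegfa and Car9 were higher by 1.61- to 1.85-fold, while the abundant enzymes of the second part of glycolysis moved little. All 35 members were tested, and 13 rose, 13 fell and 9 did not pass, against 63.9% called over all genes (31.8% higher and 32.0% lower). At 1.5-fold or more 5 rose and 4 fell, against 12.4% and 5.83% of all genes, 18.3% in all. The groups did not overlap for 28 members, against 68.1% of all genes, and the members' median log2 change was 0.04.

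Slc2a1 was at 58.5, 58.4 and 59.9 CPM in empty and 75.2, 74.15 and 74.2 CPM in sh3 libraries and rose (log2 0.34, SE 0.026, adjusted p = 3.92e-07), while Slc2a3, at only 2.62 to 3.34 CPM in empty cells, fell by 0.60 on the log2 scale. Hk2, the inducible hexokinase, was at 76.65, 74.5 and 79.5 CPM against 47.4, 47.45 and 47.2 CPM, lower in all 3 sh3 libraries (log2 -0.70, SE 0.031, adjusted p = 2.85e-09). Hk1 did not pass the test. Pfkm rose 1.37-fold and Pfkfb3 rose by 0.26 on the log2 scale, and Pfkl fell 1.13-fold. Gpi1, which interconverts glucose and fructose 6-phosphate, fell 1.25-fold.

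Pkm rose from 1968, 2007 and 2034 CPM to 2317, 2255 and 2285 CPM (log2 0.19, SE 0.015, adjusted p = 5.71e-07). Ldha moved from 652, 662 and 670.0 CPM to 708, 706 and 718 CPM (log2 0.10, SE 0.016, adjusted p = 0.00018). Gapdh went from 828.5, 778 and 776 CPM to 769.5, 708 and 689.6 CPM, the sh3 libraries lying below all empty libraries by a small gap (log2 -0.14, SE 0.038, adjusted p = 0.00734), and this call was lost when library size alone set the scale (adjusted p = 0.0955). Eno1 fell by 0.21 and Pgam1 rose by 0.13 on the log2 scale. Eno2 again rose from a low level, from 3.17, 3.03 and 3.25 CPM to 5.61, 5.81 and 6.04 CPM (log2 0.89, SE 0.1, adjusted p = 1.07e-05), a call not made by limma on log2(TPM + 1) (adjusted p = 0.0536).

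Pdk1 was at 6.18, 5.48 and 6.95 CPM in empty and 9.76, 8.57 and 11.7 CPM in sh3 libraries, with no overlap (log2 0.69, SE 0.12, adjusted p = 0.000364). Slc16a1 fell by 0.22, and Slc16a3, the hypoxia-inducible lactate exporter MCT4, was below 0.6 CPM in every UN-SCC679 library and did not pass the test.

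The HIF alpha subunits moved apart. Epas1 was at 24.8, 26.1 and 26.5 CPM in empty and 10.2, 9.51 and 9.62 CPM in sh3 libraries (log2 -1.40, SE 0.056, adjusted p = 1.16e-09), 2.64-fold lower. Hif1a went from 109, 100.2 and 101 CPM to 118, 124 and 131 CPM (log2 0.27, SE 0.041, adjusted p = 0.000145). Egln1 fell by 0.35, as it did with the hairpin in LLC by 0.52, and Egln3 stayed below 0.8 CPM and did not pass the test.

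Adm had the largest change of any member in UN-SCC679 sh3 cells. It was at 2.785, 2.09 and 1.74 CPM in empty and 0.496, 0.468 and 0.856 CPM in sh3 libraries (log2 -1.86, SE 0.3, adjusted p = 0.000163). Vegfa rose from 43.7, 43.5 and 43.0 CPM to 71.2, 68.6 and 70.4 CPM (log2 0.69, SE 0.029, adjusted p = 1.97e-09). Ankrd37, an ankyrin repeat protein known as a HIF target, rose from 15.1, 15.8 and 15.5 CPM to 27.65, 27.0 and 25.25 CPM (log2 0.78, SE 0.051, adjusted p = 8.09e-08). Both genes had sh3 libraries well above all empty libraries. Car9 was at 1.09, 1.25 and 0.806 CPM against 1.465, 1.78 and 1.835 CPM (log2 0.69, SE 0.24, adjusted p = 0.025), and without any 1 of 3 libraries, replicate 3 of the empty group or replicate 2 or 3 of the sh3 group, the adjusted p was 0.0711 to 0.0813. P4ha1 did not pass the test (log2 0.02, SE 0.024) and P4ha2 fell by 0.53 on the log2 scale.

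Overexpression of wild-type DSTYK in UN-SCC679 cells was set against the empty pLENTI6 vector. Most glycolytic enzymes were lower, by small amounts, and larger changes were seen for a few low or regulated members. Of 15 glycolytic enzymes 9 fell, with log2 changes between -0.39 (Eno1) and -0.12 (Gpi1), 1 rose (Pfkp, log2 0.25) and 5 did not pass. Over the 34 members tested 4 rose, 17 fell and 13 did not pass, against 29.7% called over all genes, 14.6% higher and 15.2% lower. At 1.5-fold or more 3 rose and 3 fell, against 2.1% and 2.75% of all genes, 4.84% in all. The groups did not overlap for 28 members, against 46.0% of all genes. Without the empty replicate 1 that stood apart, 4 rose and 18 fell. The members' median log2 change was -0.14. The 6 epithelial markers summed to 931 to 967 TPM in empty and 763 to 802 TPM in OE_DSTYKwt libraries, and their part in these changes was not tested.

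Slc2a1 was at 76.05, 74.2 and 74.0 CPM in empty and 50.8, 48.2 and 49.6 CPM in OE_DSTYKwt libraries, 1.51-fold lower (log2 -0.59, SE 0.03, adjusted p = 1.31e-06; -0.58 without replicate 1). Slc2a3 moved the other way, from 4.93, 4.52 and 5.25 CPM to 7.525, 7.63 and 7.58 CPM (log2 0.63, SE 0.07, adjusted p = 0.000155; 0.64 without replicate 1). Neither gene had overlapping groups. Pfkfb3 rose from 18.6, 19.8 and 19.4 CPM to 31.6, 31.03 and 31.1 CPM (log2 0.70, SE 0.039, adjusted p = 2.09e-06; 0.68 without replicate 1).

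The abundant enzymes showed the small shift. Pkm went from 2573, 2471 and 2500 CPM to 2411, 2404 and 2379 CPM and did not pass the test (log2 -0.07, SE 0.025, adjusted p = 0.0705), but did without empty replicate 1 (log2 -0.05, adjusted p = 0.0238). Gapdh went from 534, 512 and 486 CPM to 466, 471 and 457.5 CPM (log2 -0.14, SE 0.037, adjusted p = 0.021), a call that limma on log2(TPM + 1) did not make (adjusted p = 0.218) and that was lost without any 1 of 4 libraries, empty replicate 2 or any OE_DSTYKwt replicate (adjusted p 0.0557 to 0.0836). Ldha went from 892, 841 and 838 CPM to 758, 773 and 767 CPM (log2 -0.16, SE 0.032, adjusted p = 0.00421), and replicate 1 of the empty group was its highest library, as it was for Pkm, Gapdh, Aldoa, Tpi1, Pgk1 and Eno1, among others. Without that replicate Ldha fell by 0.13, Gapdh by 0.10 and Eno1 by 0.34. Pdk1 fell by 0.32 and Slc16a1 by 0.18 on the log2 scale. Slc16a3 was too low to be tested.

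Neither Hif1a nor Epas1 passed the test, with Hif1a at 98.4, 107 and 103 CPM in empty and 101, 102 and 101.5 CPM in OE_DSTYKwt libraries, which overlapped (log2 -0.02, SE 0.033, adjusted p = 0.704; -0.05 without replicate 1). Egln3 fell from 1.03, 1.59 and 1.18 CPM to 0.403, 0.657 and 0.565 CPM, a low level throughout (log2 -1.23, SE 0.25, adjusted p = 0.00498; -1.35 without replicate 1). P4ha2 fell from 7.215, 7.64 and 7.085 CPM to 3.36, 2.96 and 3.23 CPM (log2 -1.20, SE 0.078, adjusted p = 5.14e-06; -1.21 without replicate 1). The companion isoform P4ha1 fell by 0.24. Ankrd37 rose from 5.82, 5.74 and 5.11 CPM to 8.64, 8.94 and 10.1 CPM (log2 0.73, SE 0.08, adjusted p = 0.000148; 0.76 without replicate 1). Vegfa was at 66.65, 66.15 and 66.5 CPM against 66.9, 69.9 and 69.4 CPM and did not pass the test (log2 0.05, SE 0.028, adjusted p = 0.232; 0.05 without replicate 1).

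**Figure D2:**
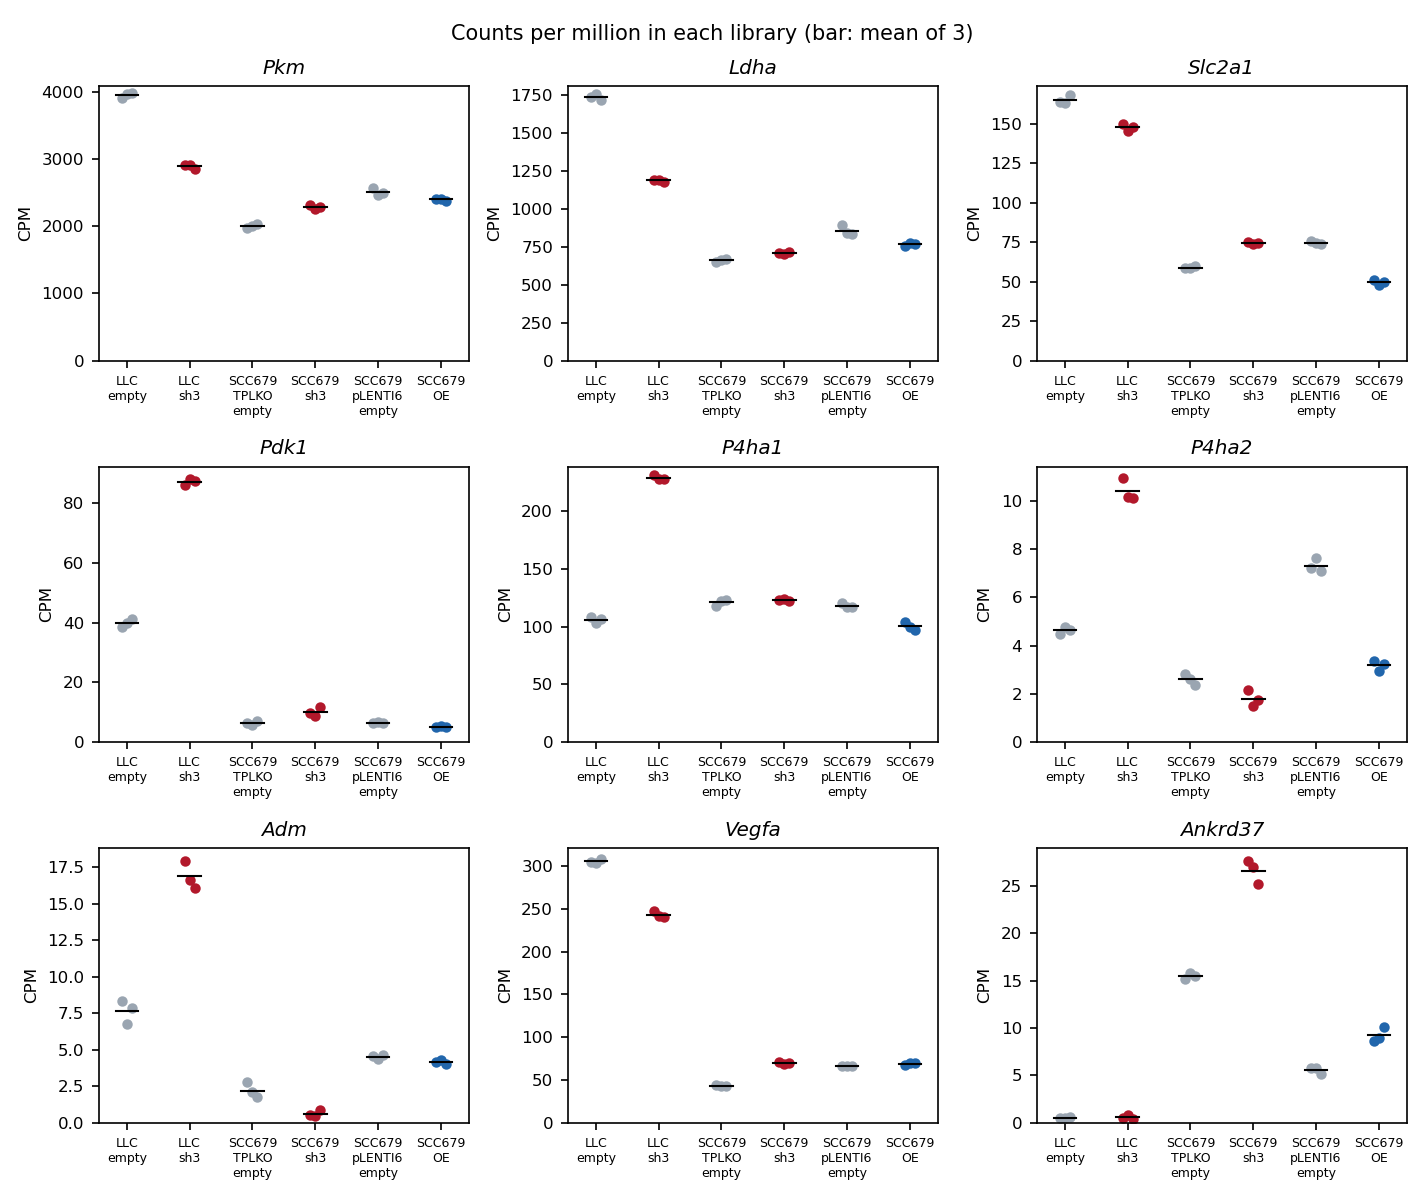
CPM (y axis, linear from 0) of 9 members in each of the 18 libraries (points) by group (x axis; SCC679 stands for UN-SCC679 and OE for OE_DSTYKwt), with a bar at the mean of 3; grey marks empty vector, red sh3 and blue OE_DSTYKwt. P4ha1 and Pdk1 rise with the hairpin in LLC, Ldha, Pkm and Vegfa fall there, and Vegfa and Ankrd37 rise with the hairpin in UN-SCC679.

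Across the 3 comparisons with an altered Dstyk level, 33 members were tested in all. Of these, 13 were called in all 3, against 19.4% of the 12371 genes tested in all 3. Aldoc and Pfkfb4 were called in none, against 11% of genes, and Slc16a3 was not called in either hairpin comparison. Pfkfb3 alone rose in all 3, against 3.31% of genes. Eno1, Gapdh, Higd1a, Pfkl and Slc16a1 fell in all 3, against 3.46% of genes, although the Gapdh calls in UN-SCC679 were lost under some alternatives. Dstyk itself moved in opposite directions with the hairpin and with OE_DSTYKwt. Its level with OE_DSTYKwt, 37.2 CPM, was close to the 37.1 CPM of the empty TPLKO cells of UN-SCC679. These values cover reads assigned to the listed Dstyk transcripts, and whether all reads of the inserted DSTYK are among them was not tested.

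The hairpin effects in LLC and UN-SCC679, which share no library, were set against each other with an interaction contrast (the log2 change in LLC minus that in UN-SCC679). Of the 34 members tested in both lines, 7 rose in both (Car9, Eno2, Hif1a, Pdha1, Pdk1, Pfkfb3 and Pfkm), 6 fell in both (Egln1, Eno1, Gapdh, Higd1a, Pfkl and Slc16a1), 4 rose in LLC and fell in UN-SCC679 (Adm, Hk2, P4ha2 and Slc2a3) and 5 fell in LLC and rose in UN-SCC679 (Ldha, Pgam1, Pkm, Slc2a1 and Vegfa). Over the 12833 genes tested in both lines these shares were 15.2% higher in both, 17.1% lower in both, 10.9% higher in LLC and lower in UN-SCC679, and 9.89% the reverse. The difference itself was called for 29 of 35 members, 16 higher and 13 lower in LLC, against 60.0% over all genes, 28.1% higher and 31.9% lower. The 16 include Epas1, which held only 3 and 16 estimated counts in LLC and passed the filter through its UN-SCC679 libraries. Its effect in LLC is therefore not measured. The reduction of Dstyk also differed, with a contrast of -0.40 (SE 0.062, adjusted p = 3.51e-05), being deeper in LLC.

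Vegfa had a contrast of -1.02 (SE 0.029, adjusted p = 6.2e-14), Ldha of -0.65 (SE 0.021, adjusted p = 3.54e-13) and Pkm of -0.64 (SE 0.022, adjusted p = 6.67e-13). P4ha1 had one of 1.10 (SE 0.032, adjusted p = 8.6e-14) and Hk2 of 0.97 (SE 0.032, adjusted p = 4.03e-13). Adm had a contrast of 3.01 (SE 0.25, adjusted p = 3.03e-08) and P4ha2 one of 1.70 (SE 0.17), both from few reads in UN-SCC679 sh3 cells, where Adm held 22, 20 and 35 estimated counts. Gapdh, with -0.24, and Slc2a1, with -0.50, were also called, whereas Hif1a, at -0.10 (adjusted p = 0.0835), was not. Hif1a was called when library size alone set the scale (adjusted p = 0.0342), with no filter on low counts (0.0165) and without replicate 1 of the UN-SCC679 sh3 group (log2 -0.13, adjusted p = 0.0136).

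At base the members differed widely between the lines. In the empty TPLKO libraries LLC had higher counts of the glucose transporters, of Pfkp, Ldha, Pdk1, Hif1a, Egln3 and Vegfa, and UN-SCC679 had higher counts of Epas1, Ankrd37 and Pfkfb3. Of 35 members 22 were higher and 9 lower in LLC and 4 did not pass, against 82.9% called over all genes (40.9% higher and 42.0% lower). At 1.5-fold or more 17 were higher and 5 lower, against 23.6% and 28.4% of all genes, 52.0% in all, and 33 had groups that did not overlap, against 84.2%. Line, strain and tumour type cannot be told apart here.

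Egln3 stood at 71.6, 68.3 and 66.8 CPM in LLC and at 0.533, 0.757 and 0.504 CPM in UN-SCC679, 113-fold higher in LLC (log2 6.81, SE 0.085, adjusted p = 1.33e-14). Pfkp was at 232, 232 and 230.0 CPM against 15.9, 16.9 and 18.3 CPM (log2 3.75, SE 0.036, adjusted p = 1.63e-15). Vegfa was at 305, 304 and 308 CPM against 43.7, 43.5 and 43.0 CPM (log2 2.80, SE 0.021, adjusted p = 3.75e-16). In each case the LLC libraries were far above those of UN-SCC679.

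Pdk1 followed, at 38.5, 39.8 and 41.3 CPM in LLC against 6.18, 5.48 and 6.95 CPM (log2 2.68, SE 0.072, adjusted p = 9.77e-12). Hif1a was at 478, 471 and 461 CPM in LLC against 109, 100.2 and 101 CPM (log2 2.17, SE 0.031, adjusted p = 4.42e-14). Slc2a1, Ldha and Pkm were 2.77-, 2.60- and 1.96-fold higher in LLC, with adjusted p = 8.5e-14, 1.06e-14 and 5.86e-14. Pgk1, Pfkm, Eno2 and Aldoc did not pass the test between the lines.

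On the other side, Epas1 held 3 estimated counts over the 3 LLC libraries and 3251 over the 3 UN-SCC679 libraries, a ratio of 1100 with an exact 95% interval from 374 to 5310 that covers counting error only. Ankrd37 was at 0.465, 0.498 and 0.6445 CPM in LLC against 15.1, 15.8 and 15.5 CPM (log2 -4.86, SE 0.12, adjusted p = 3.38e-12). Pfkfb3 was 2.85-fold lower in LLC (adjusted p = 1.04e-12). Car9 was counted among the 9 lower, but only at the threshold (log2 -0.66, SE 0.29, adjusted p = 0.05). With any 1 library left out, 7 to 8 members were lower.

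Both empty vectors in UN-SCC679 were also compared, which shows how far members moved between populations of 1 line that carried no insert, although Dstyk itself was at 37.1 ± 1.04 with TPLKO and 30.5 ± 1.46 CPM with pLENTI6. The TPLKO cells had higher Pfkfb3, Epas1 and Ankrd37 and lower P4ha2, Eno2, Egln3, Adm and Slc2a3 than the pLENTI6 cells. Of 35 members 9 were higher, 16 lower and 10 did not pass, against 68.7% called over all genes (33.3% higher and 35.4% lower), and at 1.5-fold or more 4 were higher and 6 lower, against 11.6% and 14%, 25.6% in all. The groups did not overlap for 27 members, against 73.2% of all genes. Without pLENTI6 replicate 1 there were 10 higher and 16 lower. Vector, doxycycline and any difference in library handling cannot be told apart. The 7 fibroblast markers summed to 3880 to 3990 TPM with TPLKO and 1360 to 1460 TPM with pLENTI6, and the 6 epithelial markers to 540 to 565 and 931 to 967 TPM; their part in these differences was not tested.

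Pfkfb3 was at 71.8, 70.1 and 70.9 CPM with TPLKO and 18.6, 19.8 and 19.4 CPM with pLENTI6 (log2 1.86, SE 0.037, adjusted p = 1.69e-10; 1.85 without replicate 1). Epas1 was at 24.8, 26.1 and 26.5 CPM against 7.51, 8.95 and 8.88 CPM (log2 1.59, SE 0.07, adjusted p = 3.17e-08; 1.52 without replicate 1), so that the sh3 level of 9.51 to 10.2 CPM lay near the pLENTI6 levels. Ankrd37 was at 15.1, 15.8 and 15.5 CPM against 5.82, 5.74 and 5.11 CPM (log2 1.46, SE 0.07, adjusted p = 5.73e-08; 1.501 without replicate 1).

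P4ha2 was lower with TPLKO, at 2.83, 2.605 and 2.34 CPM against 7.215, 7.64 and 7.085 CPM (log2 -1.51, SE 0.1, adjusted p = 6.81e-07; -1.51 without replicate 1). Eno2 was at 3.17, 3.03 and 3.25 CPM against 7.975, 8.25 and 8.425 CPM (log2 -1.40, SE 0.084, adjusted p = 2.95e-07; -1.41 without replicate 1). Egln3 was at 0.533, 0.757 and 0.504 CPM against 1.03, 1.59 and 1.18 CPM (log2 -1.10, SE 0.26, adjusted p = 0.00412; -1.22 without replicate 1). None of these groups overlapped.

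Adm was at 2.785, 2.09 and 1.74 CPM against 4.59, 4.39 and 4.61 CPM (log2 -1.06, SE 0.16, adjusted p = 0.000228; -1.03 without replicate 1). Slc2a3 was at 2.62, 3.34 and 3.02 CPM against 4.93, 4.52 and 5.25 CPM (log2 -0.73, SE 0.12, adjusted p = 0.000429; -0.71 without replicate 1), a call that limma on log2(TPM + 1) did not make (adjusted p = 0.0707). Vegfa, at 43.7, 43.5 and 43.0 CPM against 66.65, 66.15 and 66.5 CPM, was 1.55-fold lower with TPLKO (log2 -0.63, SE 0.03, adjusted p = 5.43e-08; -0.62 without replicate 1), so that its level with the hairpin, 68.6 to 71.2 CPM, was close to that of the pLENTI6 cells. Ldha, Pkm and Slc2a1 were lower with TPLKO by 0.39, 0.35 and 0.36 on the log2 scale, and by 0.35, 0.32 and 0.34 without replicate 1. Hif1a did not pass the test with it (log2 -0.01) or without it (log2 -0.03).

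Shares of isozymes, taken per length from TPM and without a test, since an exact permutation test of 3 against 3 libraries cannot go below p = 0.1, described the makeup of single steps. Pfkp made up 57.2% ± 1.15 of the summed phosphofructokinase TPM in empty LLC and 60.7% ± 0.388 in LLC sh3 cells (SD, n = 3), and between 7.49% and 10.9% in the 4 UN-SCC679 groups. Pfkm took 12.96% ± 0.332 in empty and 20.1% ± 0.378 in sh3 LLC cells, and 34.1% ± 1.97 and 44.2% ± 0.67 in UN-SCC679, while Pfkl fell from 29.9% ± 1.16 to 19.2% ± 0.612 and from 55.0% ± 3.64 to 45.3% ± 0.995. With the hairpin the muscle-type share was thus higher in both lines, beyond the spread between libraries. All shares here cover listed members only, so other genes of a family, such as Hk3 and Egln2, were not summed.

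Hk1 took 42.1% ± 1.23 of hexokinase TPM in empty LLC and 42.7% ± 0.779 in sh3 cells, a difference within the spread. In UN-SCC679 it went from 65.0% ± 1.65 to 76.8% ± 0.114 with the hairpin. Of the summed TPM of Pfkfb3 and Pfkfb4, Pfkfb3 took 63.9% ± 2.69 in empty and 79.7% ± 1.72 in sh3 LLC cells. With OE_DSTYKwt its share rose from 57.5% ± 1.54 to 70.8% ± 1.93. Slc2a3 was 5.475% ± 0.695 of Slc2a1 and Slc2a3 in empty pLENTI6 and 13.3% ± 1.23 in OE_DSTYKwt cells.

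Egln3 made up 56.0% ± 0.907 of Egln1 and Egln3 in empty and 68.8% ± 0.882 in sh3 LLC cells, and at most 2.31% in any UN-SCC679 group. Epas1 was 18.6% ± 1.73 of Hif1a and Epas1 in empty and 6.05% ± 0.467 in sh3 TPLKO cells of UN-SCC679. With the empty pLENTI6 vector it was 6.28% ± 0.343. By group mean P4ha1 exceeded 92% of P4ha1 and P4ha2 in every group, and Eno1 without its copies exceeded 98% of Eno1 and Eno2. Eno3, an enolase gene outside the members, was not in this sum. In empty TPLKO cells it stood at 32.4 ± 0.264 CPM in LLC and 80.0 ± 1.66 CPM in UN-SCC679.

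**Figure D3:**
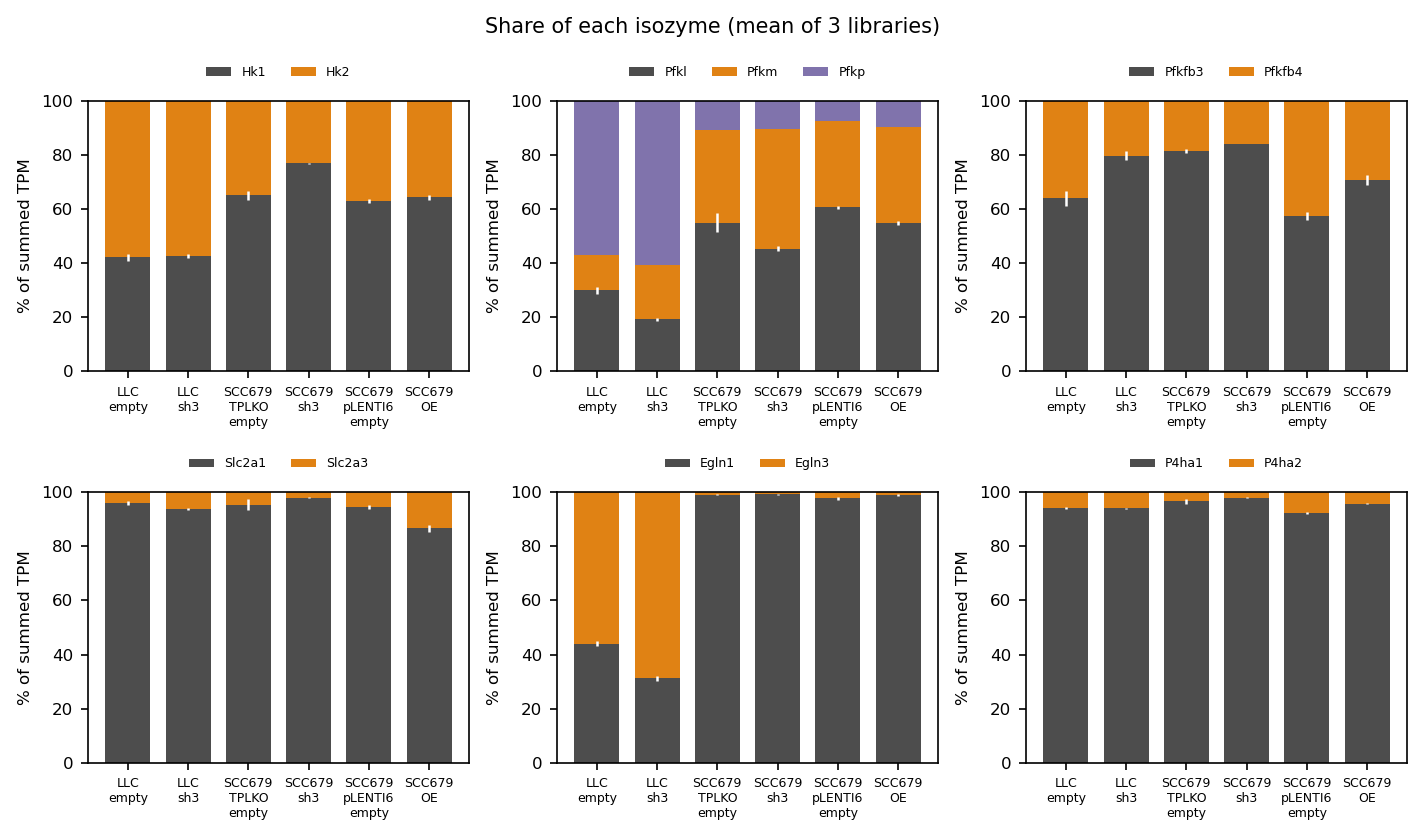
Share of each isozyme in the summed TPM of the listed members of its family (y axis, percent) by group (x axis). SCC679 stands for UN-SCC679 and OE for OE_DSTYKwt. Stacked bars give the mean of 3 libraries, with white lines for the SD of the first-named gene. Pfkp fills 57.2% to 60.7% of the LLC bars and at most 10.9% of the UN-SCC679 bars. Egln3 exceeds 50% in LLC alone, although by counts instead of TPM it takes 48.3% in empty LLC cells.

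Pkm gives rise to the M1 and M2 forms of pyruvate kinase through a pair of mutually exclusive exons, of which the upstream one marks M1 and the downstream one, the form common in proliferating cells, M2. On chromosome 9 (GRCm38) the upstream exon of 167 bases at 59675029 to 59675195 belongs to Pkm-202 and the downstream exon of 167 bases at 59675568 to 59675734 to Pkm-201. Pkm-202 took 26.9% ± 0.343 of the TPM of both transcripts in empty and 23.1% ± 1.09 in sh3 LLC cells, and 25.6% ± 0.179 and 28.0% ± 1.47 in the UN-SCC679 TPLKO cells, so the M2-type transcript was the larger in each. In the empty and OE_DSTYKwt pLENTI6 groups Pkm-202 took 14.8% ± 1.07 and 16.1% ± 0.267. A short transcript, Pkm-211, held 12.1% to 16.4% of Pkm in the TPLKO groups and 0.0814% to 0.0908% in the pLENTI6 groups. These are estimates, since reads shared by transcripts were divided between them by the counting. Vector, doxycycline and read layout, which the protocols do not assign to libraries, cannot be told apart between the TPLKO and pLENTI6 groups.

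Copies of members elsewhere in the genome bore on 3 enzymes. Genes that shared at least 50% of their 31-base words with a member's transcripts were found for 8 members, with 43 for Gapdh, 3 for Pgk1 and 2 for Eno1, and the counts of these copies were added to the member in an alternative chosen after the data were seen. The copies held 44.2% to 85.8% of the Gapdh reads, 2.01% to 72.3% of those of Eno1 and up to 25.0% of those of Pgk1. At the other 5 members they held at most 3.89%. The share differed by line and vector. For Gapdh it was 45.45% ± 0.519 in empty LLC, 68.45% ± 1.46 in empty TPLKO and 84.9% ± 0.548 in empty pLENTI6 cells of UN-SCC679, and for Eno1 it was 3.57% ± 0.652, 67.4% ± 1.09 and 71.3% ± 0.794.

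Changes with the hairpin or OE_DSTYKwt kept their direction when copies were added, with log2 changes of Gapdh of -0.39 in LLC, -0.09 in UN-SCC679 sh3 and -0.09 with OE_DSTYKwt, and of Eno1 of -0.39, -0.22 and -0.37. Differences between lines and vectors depended on them. Eno1 was at 2104, 2106 and 2086 CPM in LLC and 419.7, 401 and 414 CPM in UN-SCC679, 5.05-fold higher in LLC by its own counts (log2 2.34, SE 0.020, adjusted p = 7.14e-16), but 1.71-fold with copies (log2 0.78, SE 0.016). Gapdh was 2.53-fold higher in LLC alone and 1.47-fold with copies. Between the empty vectors of UN-SCC679, Gapdh alone was higher with TPLKO (828.5, 778 and 776 against 534, 512 and 486 CPM, log2 0.62, SE 0.041, adjusted p = 6.32e-07; 0.66 without pLENTI6 replicate 1), and with copies it was lower (log2 -0.45, SE 0.025, adjusted p = 1.39e-07). Pgk1 was lower with TPLKO by its own counts (log2 -0.34, adjusted p = 2.05e-05; -0.29 without replicate 1) and did not pass the test with copies (log2 -0.02, adjusted p = 0.606). Gapdh, Eno1 and Pgk1 levels are therefore uncertain between lines and vectors.

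**Figure D4:**
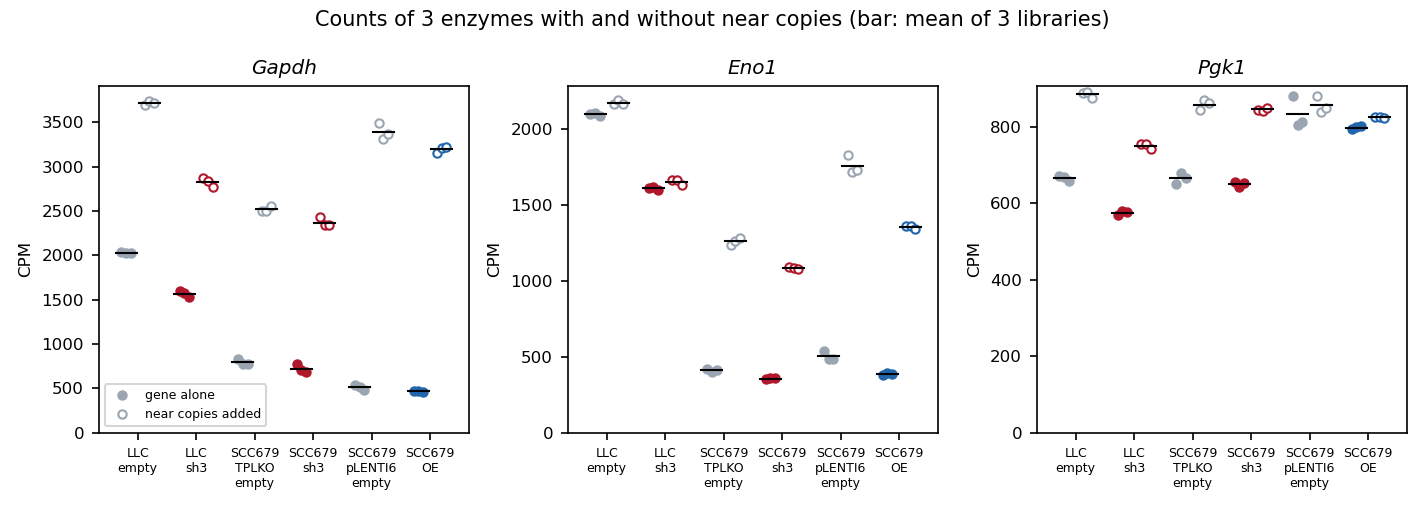
CPM (y axis, linear from 0) of 3 glycolytic enzymes by group (x axis; SCC679 stands for UN-SCC679 and OE for OE_DSTYKwt), counted for the gene alone (filled points, 1 per library) and with the counts of near copies added (open points); bars are means of 3. For Gapdh the TPLKO group of UN-SCC679 lies above the pLENTI6 group when counted alone and below it when copies are added, with log2 differences of 0.62 and -0.45.

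Neighbouring pathways were read in the same fits. Their lists hold no member and were also chosen with earlier results of these data known. Of 20 tested genes of other glycolytic and pyruvate steps, 11 rose and 4 fell with the hairpin in LLC, and 12 rose and 7 fell of 22 in UN-SCC679. That is 75.0% and 86.4% called, against 72.6% and 63.9% of all genes. Pcx, pyruvate carboxylase, rose in both, from 52.6 ± 0.925 to 81.4 ± 1.12 CPM in LLC and from 42.45 ± 2.42 to 84.9 ± 1.88 CPM in UN-SCC679 (SD, n = 3). Pdk4, another pyruvate dehydrogenase kinase, rose from 11.98 ± 0.227 to 97.8 ± 1.93 CPM in UN-SCC679 (log2 3.03, SE 0.035, adjusted p = 4.5e-14), and from 42.0 ± 2.75 to 68.8 ± 2.05 CPM with OE_DSTYKwt. Of the 22 tested with OE_DSTYKwt, 4 rose and 6 fell, 45.5% against 29.7% of all genes.

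Of other HIF regulators and targets, 23 of 38 tested rose and 10 fell with the hairpin in LLC, 21 of 41 rose and 13 fell in UN-SCC679, and 7 of 38 rose and 15 fell with OE_DSTYKwt. The called shares were 86.8%, 82.9% and 57.9%, against 72.6%, 63.9% and 29.7% of all genes. Angptl4, a lipoprotein lipase inhibitor, fell from 38.8 ± 0.811 to 1.71 ± 0.209 CPM in LLC (log2 -4.50, SE 0.070, adjusted p = 4.46e-14), while Ndrg1, a stress-induced gene, rose from 229 ± 2.5 to 410 ± 1.85 CPM. In UN-SCC679 the hairpin libraries had Lox, which cross-links collagen, at 30.8 ± 1.69 against 0.222 ± 0.133 CPM and the transcriptional repressor Bhlhe40 at 41.25 ± 1.58 against 117 ± 0.119 CPM. With OE_DSTYKwt the endothelin gene Edn1 fell from 34.6 ± 0.428 to 18.6 ± 0.941 CPM.

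In the pentose phosphate pathway, which branches from glucose 6-phosphate, 7 of 9 genes rose and 2 fell in LLC, where 72.6% of all genes were called, with Tkt, transketolase, going from 370 ± 5.55 to 671.5 ± 4.82 CPM. In UN-SCC679 sh3 cells 3 rose, 2 fell and 4 did not pass (55.6% called, against 63.9%), with Pgd going from 244 ± 0.982 to 531 ± 5.98 CPM and G6pdx from 132 ± 1.56 to 232 ± 1.5 CPM, which encode the NADPH-producing dehydrogenases of its oxidative arm. With OE_DSTYKwt 1 rose and 4 fell, 55.6% against 29.7%. Of 16 tricarboxylic acid cycle genes, 4 rose and 7 fell with the hairpin in each line, none of them by 1.5-fold, and the 68.8% called in each line lay near the 72.6% and 63.9% of all genes. With OE_DSTYKwt 2 rose and 4 fell, 37.5% against 29.7%.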

How the data were processed

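RNA of 18 libraries was sequenced as stranded mRNA with 75-base reads, per the labels' protocols, which name single-end and paired-end runs without assigning them. The authors deposited estimated counts per transcript; kallisto, sleuth and mm10 are named, without versions, in the submitters' processing notes. Of 118489 transcripts, 116816 matched GENCODE M21 (GRCm38); the other 1673 held 0.515% to 0.593% of counts and were left out. Counts were summed per gene and rounded, with both gene IDs of Aldoa summed. Whether counting used strand is not given in the sources used here; a member and an overlapping antisense gene may share reads. TPM were recomputed from the deposited counts and effective lengths.

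Each comparison of 3 against 3 libraries was fitted on all genes that passed filterByExpr (minimum count 10, minimum total 15) with edgeR 4.0.16 (R 4.3.3), TMM scaling, the quasi-likelihood test and Benjamini-Hochberg adjustment over all tested genes, with a threshold of 0.05. A second count required 1.5-fold. The contrast between lines used 12 libraries. The script was tested on simulated data. Alternatives were DESeq2 1.42.0, its size factors in edgeR, library size alone, no filter, limma 3.58.1 on log2(TPM + 1), a fit over 18 libraries, a replicate block and leaving out each library; adding near copies was chosen after the data were seen. The members and gene lists were chosen with earlier results of these data known. Per-library values were given for members called at 1.5-fold or more, at most the 8 largest per comparison, and for Gapdh, Ldha, Pkm, Slc2a1, Hif1a and Vegfa; of other lists the 2 called genes with the smallest adjusted p could be named. Sequences were taken from RefSeq (GRCm38.p6).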

Additional observations from a re-analysis of the deposited data

Results flagged for a closer look

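The hairpin effect differed between LLC and UN-SCC679, by a test of the difference itself (edgeR's quasi-likelihood test of the interaction, adjusted p under 0.05) and by at least 1.5-fold, for 14 members. The difference, LLC minus UN-SCC679 on the log2 scale, was 1.35 for Slc2a3, 0.97 for Hk2, 0.60 for Pfkm, 0.70 for Pfkfb3, 0.93 for Eno2, 1.10 for P4ha1, 1.70 for P4ha2, 3.01 for Adm and 0.76 for Egln3, and -0.64 for Pkm, -0.65 for Ldha, -1.02 for Vegfa and -0.72 for Ankrd37. Ankrd37 was below 0.8 CPM in LLC and Egln3 below 0.8 CPM in the UN-SCC679 TPLKO libraries, and Adm held 22, 20 and 35 estimated counts in UN-SCC679 sh3. For Epas1 the fitted difference was 3.59, but it rests on 3 and 16 estimated counts in LLC and depends on the prior count. Over all genes 27.5% passed the same rule, and Dstyk itself was lowered further in LLC.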

How the results depend on the processing

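The counts of members called higher and lower in each of the 6 comparisons stayed within 1.5 times their main value under every alternative run. Leaving out 1 library gave 15 higher and 13 lower in LLC sh3, 12 to 13 and 12 to 13 in UN-SCC679 sh3, 4 and 15 to 18 with OE_DSTYKwt, 21 to 23 and 7 to 8 between lines, 9 to 10 and 16 between empty vectors, and 15 to 17 and 12 to 15 for the interaction. With a replicate block the calls were 15 and 13 in LLC, 13 and 13 in UN-SCC679 sh3 and 4 and 17 with OE_DSTYKwt. Same-numbered libraries correlated weakly, at -0.037 to 0.065. In the UN-SCC679 hairpin comparison each replicate matched its own number best (0.018 to 0.065), as replicates 1 and 2 did in LLC (0.017 and 0.04). Whether the numbers pair the libraries there cannot be told from values this small. Of 1156 values of named members under an alternative, 1131 kept direction and side of the threshold, 12 lost and 5 gained a call, and 8 changed sign. Gapdh between empty vectors went to -0.45 with near copies. Hif1a between empty vectors, not called (log2 -0.01), went to 0.00118 with DESeq2, 0.0011 with its size factors and 0.00864 in the fit of 18 libraries, and to between -0.0464 and 0.026 without 1 library (0.0128 and 0.00634 without TPLKO replicate 2 or 3). With OE_DSTYKwt, Hif1a lay between -0.047 and 0.0116 without 1 library; the cause was not tested. Isozyme shares taken from counts instead of TPM moved by more than 1 SD for 45 of 60. Depth limited Epas1 in LLC and Slc16a3, Aldoc, Car9, UN-SCC679 Egln3 and Adm in UN-SCC679 sh3 cells, all below 2 CPM.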
